A study of Homo sapiens with 6 samples.

Results

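The inflammasome and pyroptosis genes described here are 10 human genes, CASP1, CASP4, CASP5, NLRP3, NLRC4, AIM2, PYCARD, GSDMD, IL1B and IL18, chosen by symbol, and all 10 were found among the 39771 rows of the deposited expression table. They were measured by RNA sequencing in MOLM-13, an established acute myeloid leukaemia cell line that carries the MLL-AF9 translocation. In 4 libraries, called shLAMP5, lentivirus had delivered a hairpin RNA that targets LAMP5, and in 2 libraries, called shNT, a hairpin with no target. All cells underwent puromycin selection. The labels tie neither a hairpin sequence nor a harvest time to a single library, and shLAMP5 libraries may therefore differ in either. Nor do they say whether replicates were independent cultures, and p-values here reflect library-to-library spread that may be technical.

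Inflammasomes are protein platforms that myeloid cells assemble when a sensor detects microbial products or damage. A sensor such as NLRP3, NLRC4 or AIM2 recruits caspase-1 directly or through the adaptor ASC, which is the product of PYCARD. Active caspase-1 matures interleukin-1 beta and interleukin-18 and cuts gasdermin D, whose freed end forms the membrane pores of pyroptosis, while human caspase-4 and caspase-5 bind bacterial lipopolysaccharide and cut gasdermin D directly. Monocytes hold many of these parts before stimulation, and IL1B and NLRP3 are known as genes that NF-kB signalling induces.

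The promoters of 4 of these genes are shown because their transcripts mark the extremes of the group. CASP4 and CASP5 are adjacent genes of which one was abundant and the other almost undetected, PYCARD had the highest level, and IL1B varied most between libraries. Each run covers the 250 bases before and the 50 bases after the gene's start, 5′ to 3′ on the gene's own strand, from RefSeq on GRCh38.p14. The intervals are chr11:104968525-104968824 for CASP4, chr11:105023119-105023418 for CASP5, chr16:31202711-31203010 for PYCARD and chr2:112836730-112837029 for IL1B, all on the minus strand. Capitals mark matches, on either strand, to the GC box GGGCGG, the PU.1 core GAGGAA, the interferon-response type repeat, which is GAAA followed by any pair of bases and GAAA again, and the C/EBP-type motif TTNCNNAA.
CASP4: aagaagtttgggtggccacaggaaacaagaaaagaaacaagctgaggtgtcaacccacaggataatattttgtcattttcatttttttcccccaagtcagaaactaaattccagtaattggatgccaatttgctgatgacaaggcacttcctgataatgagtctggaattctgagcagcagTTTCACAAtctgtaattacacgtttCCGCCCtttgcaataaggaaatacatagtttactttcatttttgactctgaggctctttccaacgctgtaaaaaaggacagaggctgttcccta
CASP5: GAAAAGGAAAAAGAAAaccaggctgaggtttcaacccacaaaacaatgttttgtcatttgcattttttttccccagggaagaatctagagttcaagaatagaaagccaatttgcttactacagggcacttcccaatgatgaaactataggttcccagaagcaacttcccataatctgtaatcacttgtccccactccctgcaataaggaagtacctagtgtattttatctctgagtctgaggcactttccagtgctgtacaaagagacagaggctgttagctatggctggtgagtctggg
PYCARD: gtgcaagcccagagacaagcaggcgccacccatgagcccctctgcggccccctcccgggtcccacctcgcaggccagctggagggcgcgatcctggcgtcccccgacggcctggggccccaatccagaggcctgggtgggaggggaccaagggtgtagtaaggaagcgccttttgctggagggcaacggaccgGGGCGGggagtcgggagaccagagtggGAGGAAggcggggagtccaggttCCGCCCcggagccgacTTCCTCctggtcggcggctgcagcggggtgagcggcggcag
IL1B: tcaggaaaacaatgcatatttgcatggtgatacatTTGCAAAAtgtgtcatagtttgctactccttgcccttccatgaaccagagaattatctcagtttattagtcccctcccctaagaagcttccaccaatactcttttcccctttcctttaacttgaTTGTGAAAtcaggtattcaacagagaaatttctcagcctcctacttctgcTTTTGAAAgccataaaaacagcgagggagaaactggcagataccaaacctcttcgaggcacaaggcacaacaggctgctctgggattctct
In a global alignment with gaps, the CASP4 and CASP5 windows shared 216 bases, 72.0% of 300, whereas the other 5 pairs of windows shared between 43.3% and 52.0%. The CASP4 window held 1 GC box and 1 C/EBP-type match, and the CASP5 window held neither but held 2 overlapping interferon-response type repeats. In the PYCARD window, which was 72.0% G and C with 23 CpG pairs, there were 2 GC boxes and 2 PU.1 cores. Among 35116 promoter windows of the same length, 45.0% held the GC box, 27.9% the PU.1 core, 36.8% the C/EBP-type motif and 3.6% the interferon-response type repeat. The IL1B window held 3 C/EBP-type matches and none of the other motifs. No other overlap between motifs occurred in these 4 windows. A match describes letters in the window and was not tested as a binding site.

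Values are in TPM, a transcript abundance corrected for length and scaled to a common total, so levels of different genes can be set side by side. The table summed to between 897026 and 912565 TPM per library, and 12192 to 12661 rows reached 1 TPM in each. Read depth is unknown. LAMP5, the targeted gene, measured 80.6, 65.6, 68.8 and 86.7 TPM in shLAMP5 1 to 4, against 170 and 282 TPM in shNT 1 and 2, in the direction of the labels. The myeloid markers of the line were present, with SPI1, the lineage factor PU.1, between 205 and 466 TPM and the surface marker CD33 between 61.7 and 141 TPM. Summed markers of other lineages stayed low in every library: at most 8.76 TPM for 4 T cell genes (mostly CD3D, with CD3E at or below 0.0489 TPM), 1.80 for 5 B cell genes, 0.977 for 5 erythroid genes, 1.04 for 5 megakaryocyte genes and 6.36 for 5 fibroblast genes. HBA2, PF4, PPBP and COL3A1 were listed at 0 in all 6. Of the shLAMP5 libraries, shLAMP5 2 stood apart with a median-ratio scaling factor of 0.8732, against 1.046 to 1.057 in the other shLAMP5 libraries and 0.9978 and 1.021 in shNT 1 and 2.

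No inflammasome gene passed the test between shLAMP5 and shNT. The test was limma's moderated test on log2(TPM + 1) over 13072 genes that reached 1 TPM in at least 2 libraries, at a Benjamini-Hochberg adjusted p of 0.05. Of the 10 members, 9 entered the test, 0 passed higher and 0 lower, and the smallest adjusted p was 0.569. Across all genes the test also called 0%. LAMP5, the targeted gene, did not pass either (log2 fold change -1.54, SE 0.25, limma adjusted p 0.252). That no member passed therefore does not show that the members were unchanged. At an unadjusted limma p under 0.05 there were 0 members, against 8.97% of all genes. Log2 fold changes, taken as shLAMP5 minus shNT of log2(TPM + 1), understate changes of low genes. They were positive for 8 of 9 members, with a median of 0.34, against 49.3% positive and a median of -0.0060 over all genes. The count was also 8 under median-ratio scaling and quantile normalization (medians 0.34 and 0.38), but it was 6 without shNT 1, 7 without shNT 2 and 9 without shLAMP5 2. Members whose 4 shLAMP5 libraries all lay above both shNT libraries numbered 2 of 9, CASP1 and IL18, against 8.25% of all genes (21.8% in either direction). No member lay below in the same way, against 13.5% of all genes.

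**Figure D1:**
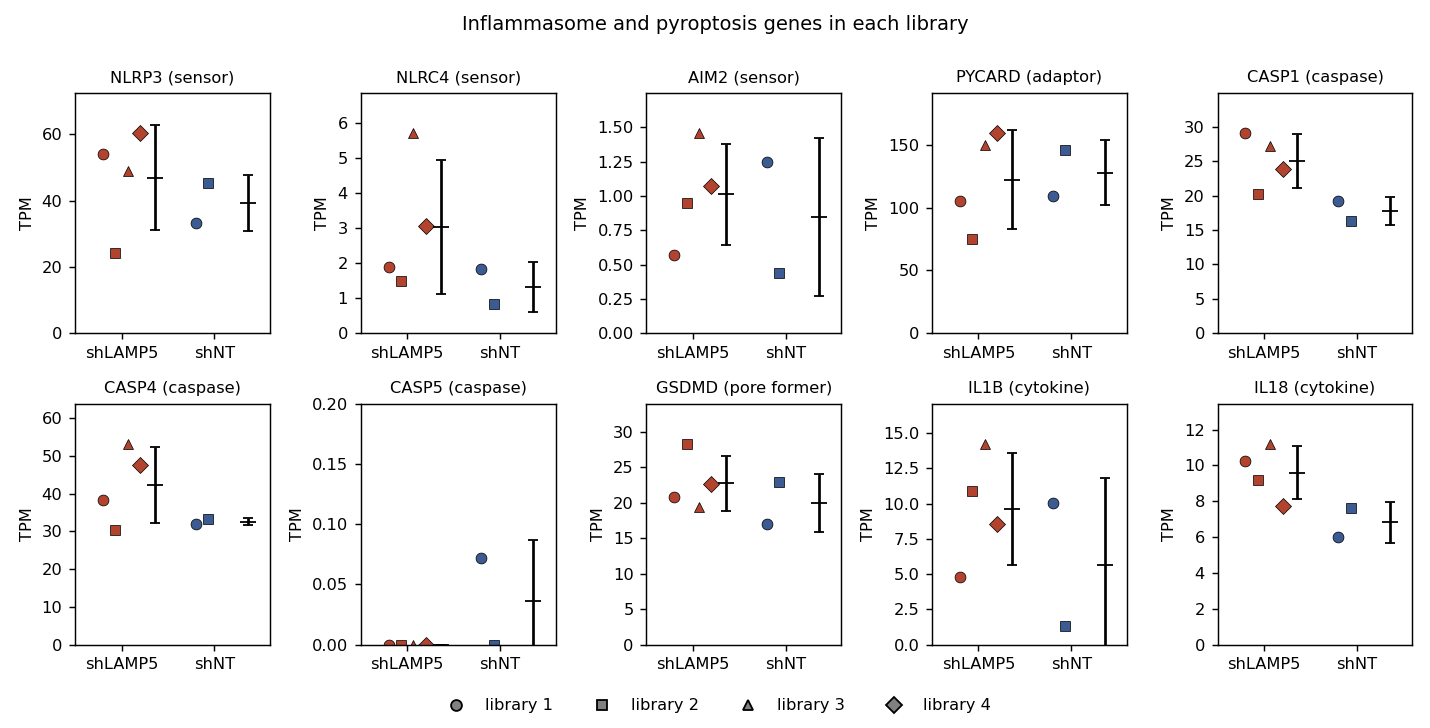
TPM of each gene (vertical axes from 0, each with its own scale) in the 4 shLAMP5 libraries (red, left) and 2 shNT libraries (blue, right), with marker shapes for the library number and black bars for mean ± SD, cut at 0. PYCARD spans 74.6 to 159 TPM, and CASP5 is listed at 0 in 5 of 6 libraries.

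The adaptor was the most abundant member. PYCARD (ENSG00000103490) measured 105, 74.6, 150 and 159 TPM in shLAMP5 1 to 4, against 109 and 146 TPM in shNT 1 and 2. The lowest and the highest library were both shLAMP5 libraries, so the groups overlapped fully. Its means were 122 ± 39.4 TPM in shLAMP5 (SD, n = 4) and 128 ± 25.9 TPM in shNT (SD, n = 2), a log2 fold change of -0.11 (SE 0.33, limma adjusted p 0.947). The sign turned without shLAMP5 2 (0.10) or without shNT 2 (0.097). PYCARD stood above 93.4% of all genes tested. PYCARD-AS1, an annotated antisense gene, shares 991 exon bases with it and is not among the deposited rows. No source used here states whether strand was used in quantification, so PYCARD is uncertain on that point.

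Of the 3 sensors among the members, NLRP3 was the most abundant, and NLRC4 and AIM2 were scarce. NLRP3 (ENSG00000162711), the sensor of potassium efflux and membrane damage, measured 54.2, 24.2, 49.0 and 60.4 TPM in shLAMP5 1 to 4, against 33.3 and 45.3 TPM in shNT 1 and 2. It was above both shNT libraries in 3 shLAMP5 libraries and below both in shLAMP5 2. The means of 47.0 ± 15.9 TPM in shLAMP5 (SD, n = 4) and 39.3 ± 8.48 TPM in shNT (SD, n = 2) gave a log2 fold change of 0.19 (SE 0.36, limma adjusted p 0.906). That value was 0.47 without shLAMP5 2 and -0.026 without shNT 1.

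NLRC4 (ENSG00000091106), which signals the detection of flagellin and secretion systems by NAIP, measured 1.89, 1.498, 5.72 and 3.05 TPM in shLAMP5 1 to 4, against 1.83 and 0.823 TPM in shNT 1 and 2. Its highest library was shLAMP5 3, and shLAMP5 2 lay between the shNT libraries. The log2 fold change was 0.72 (SE 0.42, limma adjusted p 0.636), or 0.40 without shNT 2 and 0.44 without shLAMP5 3. AIM2 (ENSG00000163568), the sensor of cytosolic DNA, measured 0.571, 0.948, 1.46 and 1.07 TPM in shLAMP5 1 to 4, against 1.25 and 0.438 TPM in shNT 1 and 2. These values lie near the 1 TPM minimum, 3 of the 4 shLAMP5 libraries lay between the shNT libraries, and the log2 fold change of 0.14 (SE 0.30, limma adjusted p 0.915) became -0.18 without shNT 2. IFI16, the DNA sensor beside AIM2, named after its values were seen, was more abundant, at 6.49, 9.92, 25.6 and 14.2 TPM in shLAMP5 1 to 4, against 9.36 and 4.24 TPM in shNT 1 and 2. CARD8, another sensor named in the same way, exceeded NLRP3 in every library, at 83.6, 70.6, 96.7 and 95.4 TPM in shLAMP5 1 to 4, against 74.2 and 79.2 TPM in shNT 1 and 2.

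The inflammatory caspases differed widely in level although their genes lie side by side on chromosome 11, in the order CASP4, CASP5, CASP1, CARD16 and CARD18 among protein-coding genes. CASP1 (ENSG00000137752), the protease that matures both cytokines, measured 29.1, 20.2, 27.3 and 23.8 TPM in shLAMP5 1 to 4, against 19.2 and 16.4 TPM in shNT 1 and 2. The groups did not overlap, with shLAMP5 higher. The means were 25.1 ± 3.92 TPM in shLAMP5 (SD, n = 4) and 17.8 ± 2.01 TPM in shNT (SD, n = 2), with a log2 fold change of 0.47 (SE 0.21, 95% interval -0.026 to 0.96). It did not pass (limma p 0.0603, adjusted p 0.569), and the exact two-sided permutation p was 0.133, where 15 splits allow no less than 0.0667. With each library left out in turn the log2 fold change was between 0.36 and 0.58.

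CASP4 (ENSG00000196954), the cytosolic receptor of lipopolysaccharide, measured 38.3, 30.3, 53.1 and 47.7 TPM in shLAMP5 1 to 4, against 31.9 and 33.2 TPM in shNT 1 and 2. It was above both shNT libraries in 3 shLAMP5 libraries and below both in shLAMP5 2. The log2 fold change was 0.34 (SE 0.25, limma adjusted p 0.714), or 0.22 without shLAMP5 3. After median-ratio scaling or quantile normalization the groups no longer overlapped, with shLAMP5 higher.

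CASP5 (ENSG00000137757), the closest relative of CASP4 and likewise a lipopolysaccharide receptor, was listed at 0 in all 4 shLAMP5 libraries and in shNT 2, and at 0.0723 TPM in shNT 1. It was not tested. CARD18, at the far end of the cluster, was also listed at 0 in every library. In GENCODE release 29 transcripts, 2.65% of the 31-base words of CASP5 also occur in CASP4, and 0.60% of those of CASP4 occur in CASP5. CASP1 shares 7.66% of its words with CARD16, a neighbour that encodes a caspase-1-like CARD, and 17.77% of the words of CARD16 occur in CASP1. Reads of CASP1 and CARD16 may therefore be split between them, and the values of both carry that limit. The ratio of CARD16 to CASP1 lay between 0.644 and 1.02 in the shLAMP5 libraries, against 0.736 and 0.904 in shNT 1 and 2.

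GSDMD (ENSG00000104518), the pore former, had the narrowest range of the tested members in the values as given. It measured 20.8, 28.2, 19.4 and 22.6 TPM in shLAMP5 1 to 4, against 17.1 and 22.9 TPM in shNT 1 and 2. Of the shLAMP5 libraries, 3 lay between the shNT libraries. The highest library was 1.66 times the lowest, against 1.75 for CASP4 and 1.78 for CASP1. Under median-ratio scaling the SE of its log2 fold change was 0.25. That was above CASP1 (0.16), CASP4 (0.19) and IL18 (0.20) and below the other tested members. The means were 22.8 ± 3.88 TPM in shLAMP5 (SD, n = 4) and 19.98 ± 4.12 TPM in shNT (SD, n = 2), a log2 fold change of 0.18 (SE 0.23, limma adjusted p 0.843), or -0.021 without shNT 1.

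The cytokine genes differed in their spread. IL1B (ENSG00000125538) varied most of all tested members, with 4.82, 10.9, 14.2 and 8.56 TPM in shLAMP5 1 to 4, against 10.0 and 1.29 TPM in shNT 1 and 2. The highest library was 11.01 times the lowest. The lowest library of all was shNT 2, whereas 2 shLAMP5 libraries lay between shNT 2 and shNT 1, so the groups overlapped. Its log2 fold change of 0.99 (SE 0.61, limma adjusted p 0.657) was -0.14 without shNT 2 and 2.13 without shNT 1.

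IL18 (ENSG00000150782), which monocytes and many other cells make constitutively, measured 10.2, 9.17, 11.2 and 7.75 TPM in shLAMP5 1 to 4, against 6.01 and 7.64 TPM in shNT 1 and 2. Here too shLAMP5 was higher with no overlap, shLAMP5 4 by a narrow margin that was lost after median-ratio scaling. The means were 9.59 ± 1.47 TPM in shLAMP5 (SD, n = 4) and 6.82 ± 1.15 TPM in shNT (SD, n = 2), a log2 fold change of 0.43 (SE 0.21, 95% interval -0.060 to 0.93). It did not pass (limma p 0.0775, adjusted p 0.590, exact two-sided permutation p 0.133), and leaving out each library in turn gave 0.28 (without shNT 1) to 0.58.

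**Figure D2:**
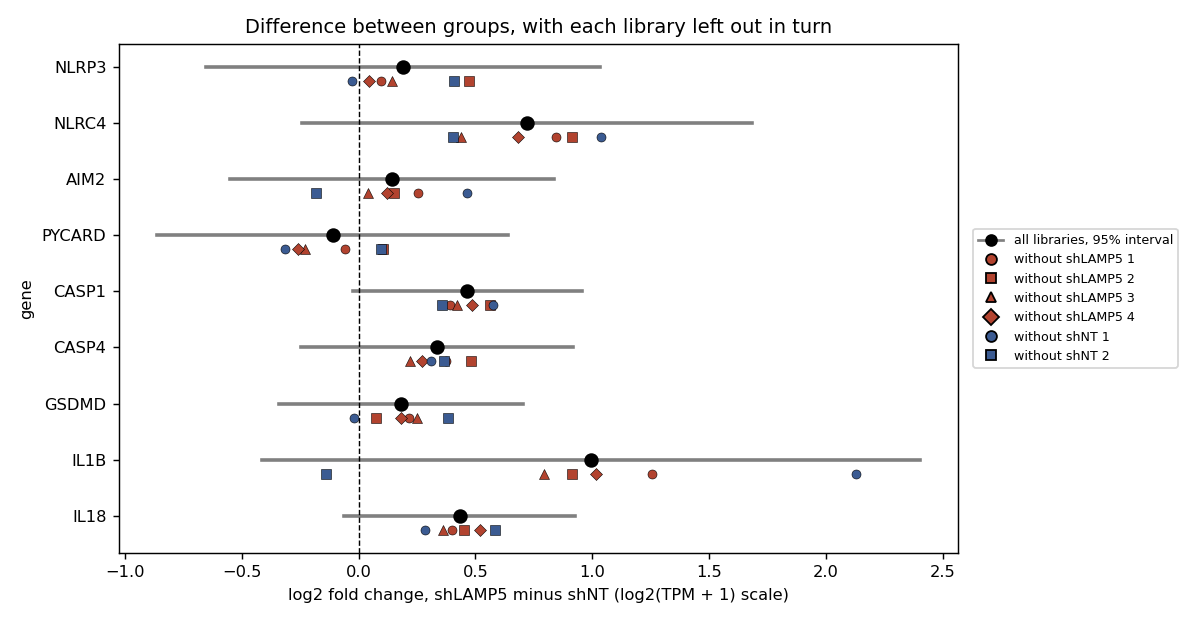
Log2 fold change of the 9 tested genes (horizontal axis, difference of mean log2(TPM + 1), shLAMP5 minus shNT) with 95% limma intervals in grey, and below each the values with 1 library left out. All 9 intervals include 0, and IL1B moves between -0.14 and 2.13 with the shNT library left out.

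By group mean the order of levels was the same at the top in both groups. In the shLAMP5 libraries PYCARD came first, followed by NLRP3, CASP4, CASP1, GSDMD, IL1B, IL18, NLRC4, AIM2 and CASP5. Neighbours whose ranges overlapped there were NLRP3 with CASP4, CASP1 with GSDMD, and IL1B with IL18. In the shNT libraries GSDMD preceded CASP1 and IL18 preceded IL1B, and the ranges of both pairs overlapped. IL1B with NLRC4 and NLRC4 with AIM2 also overlapped in shNT. NLRP3 was above CASP4 in 2 of 4 shLAMP5 libraries and in 2 of 2 shNT libraries. CASP1 was above GSDMD in 3 of 4 shLAMP5 libraries and in 1 of 2 shNT libraries.

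Members differed in how they varied across the 6 libraries, and they were not sorted into groups. Likeness was measured as the mean absolute gap per library between the log2(TPM + 1) deviations of 2 genes from their own means. Such a gap is also small for 2 genes that both vary little. CASP1 and IL18 were the closest members (0.19), then CASP1 and CASP4 (0.21) and NLRP3 and PYCARD (0.21), while NLRP3 and IL1B were the farthest apart (0.97). NLRP3, PYCARD and CASP4 were all lowest in shLAMP5 2, the library in which GSDMD was highest. IL1B, NLRC4, AIM2 and CASP1 were all lowest in shNT 2, and shLAMP5 3 was the highest library for NLRC4, AIM2, CASP4, IL1B and IL18. The shares of all genes with the same lowest or highest library are not given here, so these extremes may not be particular to the members.

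**Figure D3:**
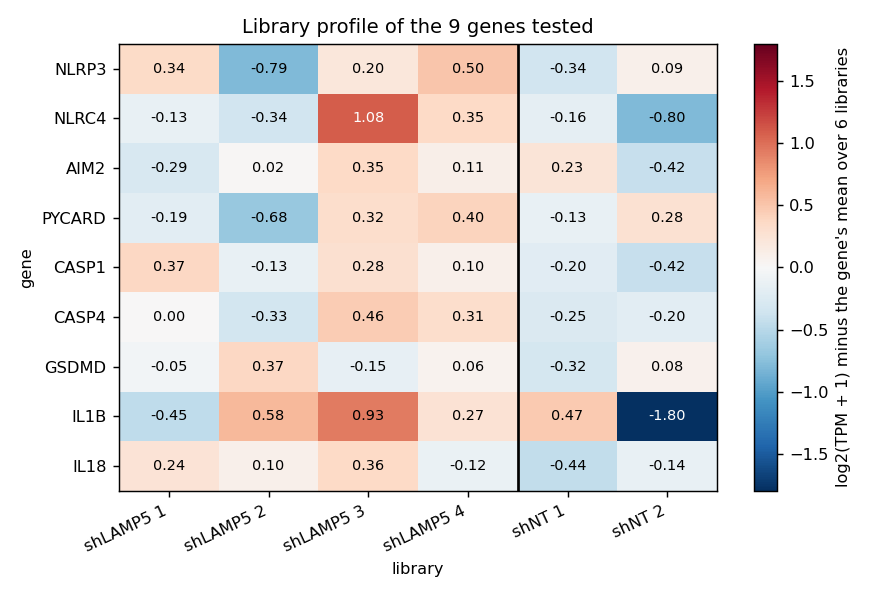
Deviation of each of the 9 tested genes from its own mean over the 6 libraries (colour and printed value, log2(TPM + 1) scale), with shLAMP5 libraries left of the black line and shNT libraries right of it. NLRP3 and PYCARD are lowest in shLAMP5 2 (-0.79 and -0.68), and IL1B is lowest in shNT 2 (-1.80).

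Outside the group, the tested genes nearest in profile to IL1B over the 6 libraries were TREM1, a receptor that amplifies myeloid inflammation (gap 0.17), and CCL2, a monocyte-attracting chemokine (0.20), where the median over all genes tested was 0.80. Nearest to NLRP3 were ZNF438 and GALNT6 (0.038 and 0.041), and nearest to PYCARD were ZNF219 and ZNF516 (0.061 and 0.076). CASP4 lay closest to ZNF875 and EMILIN2 (0.024 and 0.039), CASP1 to COPB2-DT and SCYL2 (0.050 and 0.052), GSDMD to USP20 and NKAPP1 (0.062 and 0.065), and IL18 to LRRC37A15P and POLR2J3 (0.060 and 0.067). These gaps are given as a description.

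Ratios within a library do not depend on its scaling. Those given here were picked with their values known. The ratio of PYCARD to NLRP3 was 1.94, 3.08, 3.05 and 2.64 in shLAMP5 1 to 4, against 3.29 and 3.22 in shNT 1 and 2. The groups did not overlap, with shLAMP5 lower, by a narrow margin in shLAMP5 2 and 3. For every other ratio computed the groups overlapped. How often ratios of other gene pairs separate in this way was not computed. The ratio of CASP4 to CASP1 lay between 1.32 and 2.00 in shLAMP5, against 1.66 and 2.03 in shNT, and the groups overlapped. Groups also overlapped for the ratios of PYCARD to CASP1, IL18BP to IL18 and IL18 to IL1B.

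The natural brakes on both cytokines were also expressed. IL1RN, the receptor antagonist of interleukin-1, measured 32.2, 106, 169 and 46.1 TPM in shLAMP5 1 to 4, against 66.1 and 16.6 TPM in shNT 1 and 2, and exceeded IL1B in every library. Its ratio to IL1B was 6.69, 9.72, 11.9 and 5.39 in shLAMP5 1 to 4, against 6.60 and 12.9 in shNT 1 and 2, so the groups overlapped. IL18BP, the secreted decoy of interleukin-18, measured 7.07, 1.99, 11.1 and 5.97 TPM in shLAMP5 1 to 4, against 2.40 and 2.38 TPM in shNT 1 and 2. It lay above both shNT libraries in 3 shLAMP5 libraries and below both in shLAMP5 2. IL1RN had a log2 fold change of 1.09 (SE 0.73) and IL18BP of 0.99 (SE 0.49), with limma adjusted p-values of 0.684 and 0.590. The value of IL1RN was 0.12 without shNT 2, 2.05 without shNT 1 and 0.68 without shLAMP5 3.

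The wider pathway was described through 5 lists of 59 genes that hold other sensors, regulators, executors, cytokine-side genes and NF-kB priming genes. Of these, 57 were in the table and 41 were tested. Positive log2 fold changes numbered 31 of 41, with a median of 0.26, against 49.3% and -0.0060 over all genes. The count was 28 without shNT 2 (median 0.12), 31 without shNT 1 (0.40) and 32 without shLAMP5 2 (0.38). With limma 0 passed in either direction, against 0% of all genes. At an unadjusted p under 0.05 there were 6 higher and 2 lower, against 3.72% and 5.25% of all genes.

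The other sensors had positive values in 7 of 8 tested genes, with a median of 0.79. NLRP12, a regulatory NOD-like receptor of myeloid cells, measured 3.77, 5.001, 10.98 and 3.54 TPM in shLAMP5 1 to 4, against 3.12 and 1.2002 TPM in shNT 1 and 2, with the groups apart (log2 fold change 1.06, SE 0.44, limma adjusted p 0.541, or 0.61 without shNT 2). MEFV, which encodes pyrin, an inflammasome sensor, had 0.94 (adjusted p 0.544). NOD1, a receptor of bacterial cell wall fragments, had -0.091 (adjusted p 0.920).

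Regulators were positive in 8 of 9 tested genes, with a median of 0.48. PSTPIP1, a pyrin-binding adaptor, measured 15.2, 26.3, 22.4 and 21.7 TPM in shLAMP5 1 to 4, against 12.1 and 12.3 TPM in shNT 1 and 2, a log2 fold change of 0.74 (SE 0.24, limma adjusted p 0.505). Every shLAMP5 library was above both shNT libraries, as was also the case for CARD16 (0.48, adjusted p 0.555). BRCC3, a deubiquitinase of NLRP3, had -0.053 (adjusted p 0.971).

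Executors were positive in 6 of 8, with a median of 0.24. NINJ1, which ruptures the plasma membrane after gasdermin pores open, measured 59.2, 56.7, 91.5 and 58.2 TPM in shLAMP5 1 to 4, against 42.4 and 36.5 TPM in shNT 1 and 2, a log2 fold change of 0.71 (SE 0.24, limma adjusted p 0.520). GSDME, another gasdermin, had 0.48 (adjusted p 0.645), or 0.30 without shLAMP5 3, at levels up to 4.24 TPM.

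On the cytokine side 3 of 5 tested genes were positive, with a median of 0.23, and the named genes beyond IL1RN and IL18BP were HMGB1 and SIGIRR. HMGB1, a chromatin protein that dying cells release as an alarm signal, measured 692, 420, 329 and 597 TPM in shLAMP5 1 to 4, against 839 and 883 TPM in shNT 1 and 2. It lay below both shNT libraries in every shLAMP5 library (log2 fold change -0.82, SE 0.30, limma adjusted p 0.524). SIGIRR, an inhibitory receptor of the interleukin-1 family, had -0.0012 (adjusted p 1.00), a sign that turned under median-ratio scaling and quantile normalization. The interleukin-1 and interleukin-18 receptor chains IL1R1, IL1R2, IL18R1 and IL18RAP, named after their values were seen, were at or below 0.375 TPM in every library. IL1RAP, the accessory chain that the interleukin-1 receptor needs to signal, was by contrast at 26.4, 16.5, 22.4 and 26.0 TPM in shLAMP5 1 to 4, against 18.7 and 19.3 TPM in shNT 1 and 2.

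Of 11 NF-kB and priming genes, 7 were positive, with a median of 0.24. TLR4, the surface receptor of lipopolysaccharide, measured 6.06, 3.59, 9.50 and 7.41 TPM in shLAMP5 1 to 4, against 1.95 and 2.37 TPM in shNT 1 and 2, with all 4 shLAMP5 libraries above both shNT libraries (log2 fold change 1.21, SE 0.33, limma adjusted p 0.491). RELB, a subunit of NF-kB, had 0.65 (adjusted p 0.589), or 0.36 without shNT 2. TNF, an inflammatory cytokine, had -0.56 (adjusted p 0.639), or -0.26 without shNT 2 and -0.86 without shNT 1. IRAK4, a kinase below Toll-like receptors, had -0.26 (adjusted p 0.757), or -0.16 without shLAMP5 2.

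**Figure D4:**
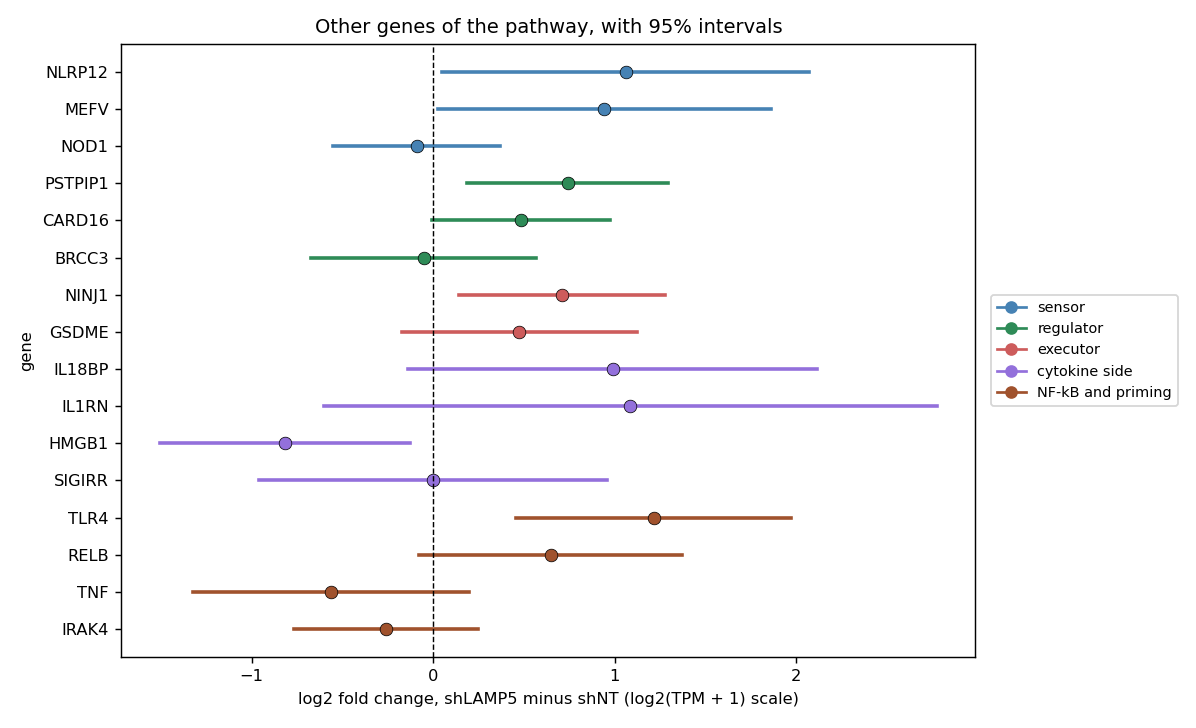
Log2 fold change (horizontal axis, difference of mean log2(TPM + 1), shLAMP5 minus shNT) with 95% limma intervals for other named genes of the pathway, coloured by list. TLR4 has the highest value (1.21) and HMGB1 the lowest (-0.82), and 0 of them passed the test after adjustment over all genes.

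Of 15 markers of monocytes and macrophages 10 were tested, all 10 had positive log2 fold changes with a median of 1.16, and 0 passed the limma test. At an unadjusted p under 0.05 there were 5 higher, against 3.72% of all genes, and for 6 all 4 shLAMP5 libraries exceeded both shNT libraries, against 8.25% of all genes. Their summed level was 830 to 2629 TPM in the shLAMP5 libraries, lowest in shLAMP5 2, against 666 and 755 TPM in shNT 1 and 2. The 5 markers not tested were scarce and went in both directions. The defining markers CD14, FCGR3A and FCN1 stayed at or below 1.39, 0.898 and 0.162 TPM, with higher means in shLAMP5. CD163 and VCAN had lower means in shLAMP5, 0.458 and 0.424 TPM, against 0.831 and 0.445 TPM in shNT. In bulk RNA, more cells of a type and more RNA per cell cannot be told apart. The part of monocytic markers in the values of the inflammasome genes was not tested.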

How the data were processed

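RNA was measured in 6 MOLM-13 libraries, grouped by their titles. The authors deposited 1 table of TPM values by Ensembl gene identifier, made with kallisto on hg19 per the submitters' processing notes. The table names no unit. TPM was read from fractional values with near-constant sums. No source used here gives the kallisto version, transcript set, filters or strand setting. Depth cannot be read from TPM, so no counting intervals were computed.

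Symbols came from a table of gene identifiers that matched 35558 of 39771 rows. Groups were compared on log2(TPM + 1) by limma 3.58.1 (R 4.3.3), its variance prior following mean expression. Genes needed 1 TPM or more in 2 or more libraries, and Benjamini-Hochberg adjustment covered all of them. Its code was tested on simulated data. Alternatives changed the pseudocount (0.1), the filter, the scaling, library weights, a replicate block, the rows and the libraries left out. Exact two-sided permutation tests used the 15 splits of 4 and 2 libraries. Named genes were all members, LAMP5, up to 2 genes per direction with the smallest p in each list, and the 2 nearest profiles of each member that averaged at least 5 TPM. The members, lists and alternatives were chosen with earlier results of these data known. TXNIP, CARD17 and TRAC were not analysed here. Results of a few genes that this rule or the marker lists include are not reported here. Sequences are from RefSeq, and the promoter set used here had entries for 7 of 10 members. Python 3.11.15, pandas 2.3.3, numpy 2.4.6, scipy 1.17.1 and matplotlib 3.10.9 made tables and figures.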

Additional observations from a re-analysis of the deposited data

Results flagged for a closer look

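A library that lay far from the others of its group was looked for in the 4 shLAMP5 libraries of 28 genes, where chance alone gives about 1 in 20. NINJ1 was at 91.5 TPM in shLAMP5 3, and GSDME was at 4.24 TPM in the same library, each far above the other shLAMP5 libraries. SIGIRR was at 74.5 TPM in shLAMP5 2, far above the rest. No inflammasome member was among them.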

How the results depend on the processing

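Limits were 6 libraries, unknown depth and no label of culture, hairpin or time for single libraries. Under every alternative run 0 members passed limma, with at most 4 of 9 at an unadjusted p under 0.05, under library weights, where 2857 of 13072 genes were. Library weights gave 210 calls over all genes (116 higher, 94 lower) and 1 among the other pathway genes, TLR4. No filter on low values gave 14, all lower. The replicate number as a replicate block gave 16 (7 higher, 9 lower). Numbers 3 and 4 occur only in shLAMP5, so that fit compares shLAMP5 1 and 2 with shNT 1 and 2. The libraries shLAMP5 3 and 4 add nothing to its fold changes. Deviations of same-numbered libraries correlated at -0.52 and -0.474. Across numbers, shLAMP5 1 and 4 correlated with shNT 2 (0.52 and 0.518) and shLAMP5 2 and 3 with shNT 1 (0.474 and 0.276). The 2 shNT deviations are mirror images, so each shLAMP5 library correlates positively with 1 of them by construction. The size of a correlation is not fixed in that way. The numbers were not taken as pairs, and a shared batch or another pairing was not tested. Members whose groups did not overlap numbered 2, between 2 and 5 with 1 library left out (5 without shLAMP5 2 and 5 without shNT 1, against 39.1% and 43.8% of all genes), and 8 without shNT 1 and shLAMP5 2 together, against 63.0% of all genes. Under median-ratio scaling the 2 were CASP1 and CASP4.

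The log2 fold change kept its sign under every alternative run for CASP1, CASP4, NLRC4 and IL18. Under the replicate block, which rests on libraries 1 and 2 of each group, it was smaller for CASP4 and NLRC4. The values were 0.062 for CASP4 and 0.24 for NLRC4, against 0.34 and 0.72 without the block. The block left 6 of 9 members positive, and 25 of 41 other pathway genes, with a median of 0.13 for the latter. Under the replicate block it was also -0.095 for NLRP3, -0.040 for AIM2 and 0.36 for SIGIRR. Library weights gave 0.12 for PYCARD, 0.021 for NOD1 and 0.17 for BRCC3. Without shNT 1 and shLAMP5 2 together GSDMD had -0.13. SIGIRR had 0.0081 under median-ratio scaling and 0.046 under quantile normalization. With 1 library left out the range was -0.026 to 0.47 for NLRP3, -0.18 to 0.47 for AIM2, -0.32 to 0.10 for PYCARD, -0.021 to 0.38 for GSDMD, -0.14 to 2.13 for IL1B, -0.21 to 0.11 for BRCC3 and -0.34 to 0.18 for SIGIRR. The cause was not tested. CASP5 entered only without the filter.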
